A study of Mus musculus with 4 samples.

Results

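Transcripts of 35 genes that define the identity of haematopoietic stem cells in the mouse were measured in 4 pools of bone marrow cells, each on 1 microarray. The genes were taken as a list of names, chosen with earlier results of these data known. They comprise surface receptors used to isolate stem cells, the transcription factors that maintain them, and other stem-cell-enriched proteins. All 35 were on the array, with 46 probes between them, out of 22769 genes and transcripts that had a measurable signal in the series. For 34 of the 35 the signal was well above background on all 4 arrays, and these are the members counted below. The exception was Sox17, a transcription factor of fetal stem cells, whose 2 probes gave scaled signals between 4.2 and 6.3 and were not well above background on any array.

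The cells were lineage-negative, Sca-1-positive, cKit-positive cells (LSK cells), the marrow fraction that holds stem cells and multipotent progenitors. They came from 12-week-old male C57BL/6 mice of 4 genotypes. Aspp1-/-p53-/- mice were Mx1-Cre(+)Aspp1-/-p53flox/flox, p53-/- mice were Mx1-Cre(+)p53flox/flox, Aspp1-/- mice lacked Aspp1 alone, and WT mice were the controls. All mice, WT included, had been injected 5 times at 8 weeks of age with pIpC, a synthetic double-stranded RNA that raises interferon and switches on the Mx1 promoter, and marrow was taken 4 weeks after treatment. Each dose was 400 μg by the design text, while the labels of single samples read 403 μg for Aspp1-/-p53-/-, 402 μg for p53-/-, 401 μg for Aspp1-/- and 400 μg for WT. Mx1-Cre is active in interferon-responsive cells and is not restricted to blood, and the labels of the Aspp1-/- and WT mice name no Cre. RNA of 3 mice was pooled for each array, so there are no replicates and no measure of the spread between mice.

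As background, haematopoietic stem cells are the self-renewing cells at the top of blood formation, and they are recognised by surface proteins such as Procr (EPCR) and Slamf1 (CD150). Their state is held by a dense circuit of transcription factors, among them Gata2, Runx1, Erg, Tal1, Lmo2, Fli1 and Lyl1, which bind many of the same enhancers and are known together as the heptad. p53, encoded by Trp53, limits stem cell self-renewal and removes damaged cells, and Aspp1, encoded by Ppp1r13b, binds p53 and favours its pro-apoptotic targets. The design of 4 genotypes asks what the loss of Aspp1, of p53 and of both does to gene expression in these cells.

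Signals are given after each array was scaled to a common 75th percentile, a signal of 570, and differences are log2 ratios of scaled signals, so that 1 is 2-fold and 0.5 is 1.41-fold. Signals of different probes depend on the probe and are compared only between arrays. The 75th percentile before scaling was between 535 and 597 on the 4 arrays, 50.3% to 53.2% of probes were well above background, and 0 spots were saturated. The targeted genes went with the labels. Ppp1r13b had scaled signals of 2196 in Aspp1-/-p53-/-, 12552 in p53-/-, 2147 in Aspp1-/- and 13195 in WT, and Trp53 had 180, 161, 784 and 731 in the same order. Whether their probes lie within the deleted exons was not established. Both arrays without p53 lay in slide row 2 and both with p53 in row 1, so p53 loss, Mx1-Cre and slide row cannot be told apart. Both arrays with Aspp1 lay in slide column 1, that of Aspp1-/- in column 2 and that of Aspp1-/-p53-/- in column 4. Aspp1 loss and slide column cannot be told apart either.

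The sort could be checked on the array as well. The gate markers Kit (cKit) and Ly6a (Sca-1), and the progenitor markers Cd34 and Flt3, were well above background on all 4 arrays. Of the lineage markers given here, Cd8a was on none, Ms4a1 was on the Aspp1-/- array alone, and Cd3e, Cd4, Itgam and Ly6g were well above background on all 4, so transcripts of lineage markers were not absent from the sorted cells. In such pools of sorted cells, fewer cells of a type and less RNA per cell cannot be told apart.

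With the brightest probe of each gene, the stem cell identity genes differed little between the genotypes. In none of the 5 comparisons of 2 arrays did a member reach a 2-fold difference, and only Nkx2-3 and Runx1 reached a log2 difference of 0.5, both lower in Aspp1-/-p53-/- than in WT. In Aspp1-/-p53-/- against WT, 23 of the 34 members were below 0 and the median was -0.09, with the members between -0.64 for Nkx2-3 and 0.24 for Lyl1. Among all 18988 genes well above background on all 4 arrays, 46.9% were below 0 in that comparison, the median was 0.01, and 2.26% passed 2-fold and 9.37% passed 0.5 in either direction. The 2 members past 0.5 are 5.88% of the 34 and so not above the background share. Further probes are not in these counts: that of Mecom passed 2-fold, and that of Ctnnal1 passed 0.5, in both comparisons of the p53-/- array, with WT and with Aspp1-/-p53-/-.

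Differences of the single mutants from WT were smaller. In p53-/- against WT, 21 of 34 members were below 0, the median was -0.03, and values ran between -0.46 for Nkx2-3 and 0.31 for Fgd5. Of all genes 45.6% were below 0, with a median of 0.015. The count past 2-fold was 0 and the count past 0.5 was 0, against 1.09% and 4.84% of all genes well above background on all arrays. In Aspp1-/- against WT, 20 of 34 were below 0, the median was -0.02, and values ran between -0.27 for Erg and 0.40 for Fgd5. Of all genes 47.35% were below 0, with a median of 0.01. Again 0 members passed either size, against 0.521% and 3.64% of all genes.

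Aspp1-/-p53-/- was also set against each single mutant. In Aspp1-/-p53-/- against p53-/-, 23 of 34 members were below 0, the median was -0.05, and the extremes were Tek at -0.33 and Gfi1b at 0.26. In Aspp1-/-p53-/- against Aspp1-/-, 25 of 34 were below 0, the median was again -0.05, and the extremes were Nkx2-3 at -0.45 and Ly6a at 0.29. Of all genes 49.7% were below 0 in the comparison with p53-/- and 50.8% in that with Aspp1-/-, with medians of 0.0008 and -0.003. The members past 2-fold and past 0.5 numbered 0 in both comparisons, against 1.43% and 5.29% of all genes in the comparison with p53-/- and 1.58% and 7.04% in the comparison with Aspp1-/-. The comparisons share arrays, so their counts are not independent of each other.

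The scanner software gives an error estimate for each spot. For the difference of 2 arrays, the lowest value and the median over the members were both 0.204, and the highest was 0.325. A value shared by so many members is not a spread measured for each of them. Within this error lay 25 of 34 members in Aspp1-/-p53-/- against WT, 28 in p53-/- against WT, 30 in Aspp1-/- against WT, 31 in Aspp1-/-p53-/- against p53-/- and 25 in Aspp1-/-p53-/- against Aspp1-/-. Both figures are technical and cover neither the mice nor the sort, so a difference larger than either is still a difference between 2 pools.

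**Figure D1:**
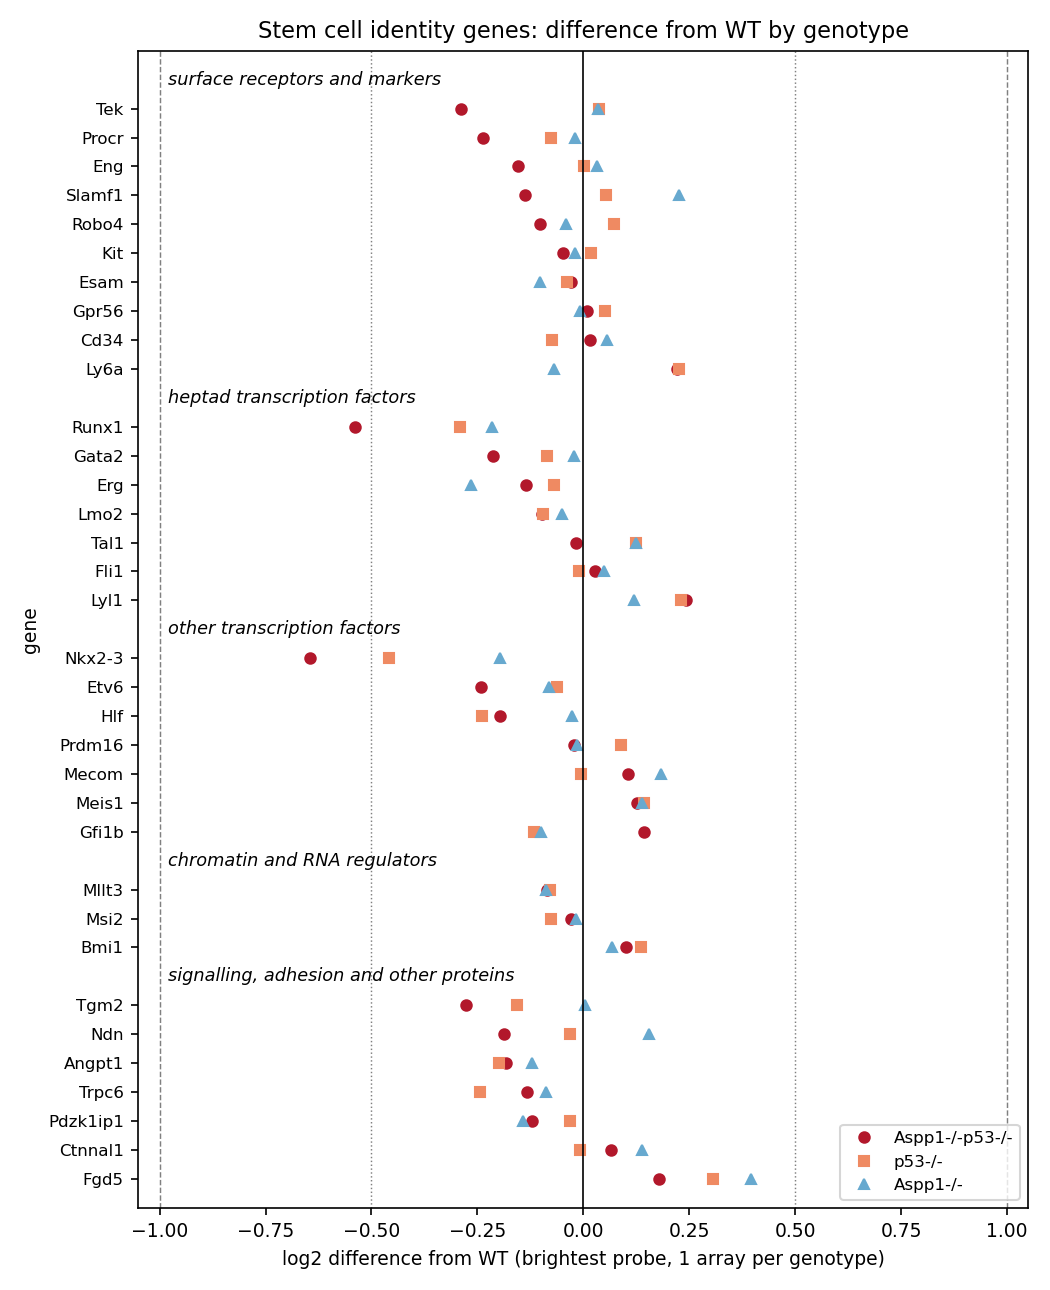
The log2 difference from WT (horizontal axis) is plotted for each of the 34 members (rows, grouped by role), with circles for Aspp1-/-p53-/-, squares for p53-/- and triangles for Aspp1-/-, each from 1 array. Dotted lines mark 0.5 and dashed lines 1 in either direction. Nkx2-3 at -0.64 and Runx1 at -0.54 in Aspp1-/-p53-/- are the 2 points beyond a dotted line.

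Nkx2-3, a homeodomain transcription factor expressed in stem and progenitor cells and in spleen, showed the widest range of the members by their brightest probes. Its scaled signal was 1618 in Aspp1-/-p53-/-, 1840 in p53-/-, 2208 in Aspp1-/- and 2530 in WT. All 3 mutant arrays were below WT, the Aspp1-/-p53-/- array most. The log2 differences from WT were -0.64 in Aspp1-/-p53-/-, which is 1.56-fold, -0.46 in p53-/- and -0.20 in Aspp1-/-. Its probe, the only one for the gene, lies at chr19:43689699-43689757 (mm9, plus strand).

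Runx1, the heptad factor that the emergence of stem cells from endothelium requires, was measured by 2 probes that differed in how far they moved. The brighter probe, at chr16:92605785-92605844 (mm9, minus strand), gave 5238 in Aspp1-/-p53-/-, 6227 in p53-/-, 6559 in Aspp1-/- and 7613 in WT, so that all mutant arrays were below WT. Its differences from WT were -0.54, -0.29 and -0.21 for Aspp1-/-p53-/-, p53-/- and Aspp1-/-. The further probe, at chr16:92604413-92604472, gave 2391 in Aspp1-/-p53-/-, 2336 in p53-/-, 2134 in Aspp1-/- and 2417 in WT. Here the Aspp1-/-p53-/- array was within -0.02 of WT, and the lowest array was that of Aspp1-/-, at -0.18. The lower Runx1 signal in Aspp1-/-p53-/- was therefore seen with 1 of the gene's 2 probes.

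By their brightest probes, Nkx2-3 and Runx1 were the members furthest from WT, and the 250 bases upstream of their annotated starts are shown for that reason (RefSeq, GRCm38.p6, 5′ to 3′ on the gene's strand). Capitals mark matches on either strand to the motifs searched: AGATAA for GATA factors, CGGAAG for ETS factors, CANNTG for the E-box that Tal1 and Lyl1 dimers read, TGTGGT for Runx proteins, and a p53 half-site. No matches overlapped. The Nkx2-3 window is chr19:43612075-43612324 (plus strand), and those of the distal and proximal Runx1 starts are chr16:92826075-92826324 and chr16:92697330-92697579 (minus strand).
Nkx2-3: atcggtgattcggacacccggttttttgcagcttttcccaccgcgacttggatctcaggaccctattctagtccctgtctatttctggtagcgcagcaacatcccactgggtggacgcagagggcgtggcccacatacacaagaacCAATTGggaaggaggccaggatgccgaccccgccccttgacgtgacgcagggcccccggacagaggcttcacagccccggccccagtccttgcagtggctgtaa
Runx1 distal: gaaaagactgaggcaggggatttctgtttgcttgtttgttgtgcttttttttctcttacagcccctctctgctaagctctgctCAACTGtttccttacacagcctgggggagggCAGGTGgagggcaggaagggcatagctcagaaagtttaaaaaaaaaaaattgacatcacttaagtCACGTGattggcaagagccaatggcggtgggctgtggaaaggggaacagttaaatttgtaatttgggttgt
Runx1 proximal: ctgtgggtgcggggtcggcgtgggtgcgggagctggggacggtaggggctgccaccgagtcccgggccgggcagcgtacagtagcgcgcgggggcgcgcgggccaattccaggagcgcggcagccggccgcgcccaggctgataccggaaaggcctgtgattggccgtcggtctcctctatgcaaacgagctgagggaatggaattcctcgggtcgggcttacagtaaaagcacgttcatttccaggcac
The Nkx2-3 window held 1 E-box, the distal Runx1 window 3 and the proximal Runx1 window 0, and the other motifs were not among their letters. Of the 35 members, 28 matched an entry of the promoter table, with 39 windows between them. An E-box was in 56.4% of the members' windows, against 66.2% of all 32851 windows of the same length. The ETS motif was in 10.3% against 13.6%, the GATA motif in 5.13% against 9.99%, the Runx motif in 2.56% against 14.0%, and the p53 half-site in 0.0% against 7.13%. These are matches of letters in a short window, and say nothing of binding.

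**Figure D2:**
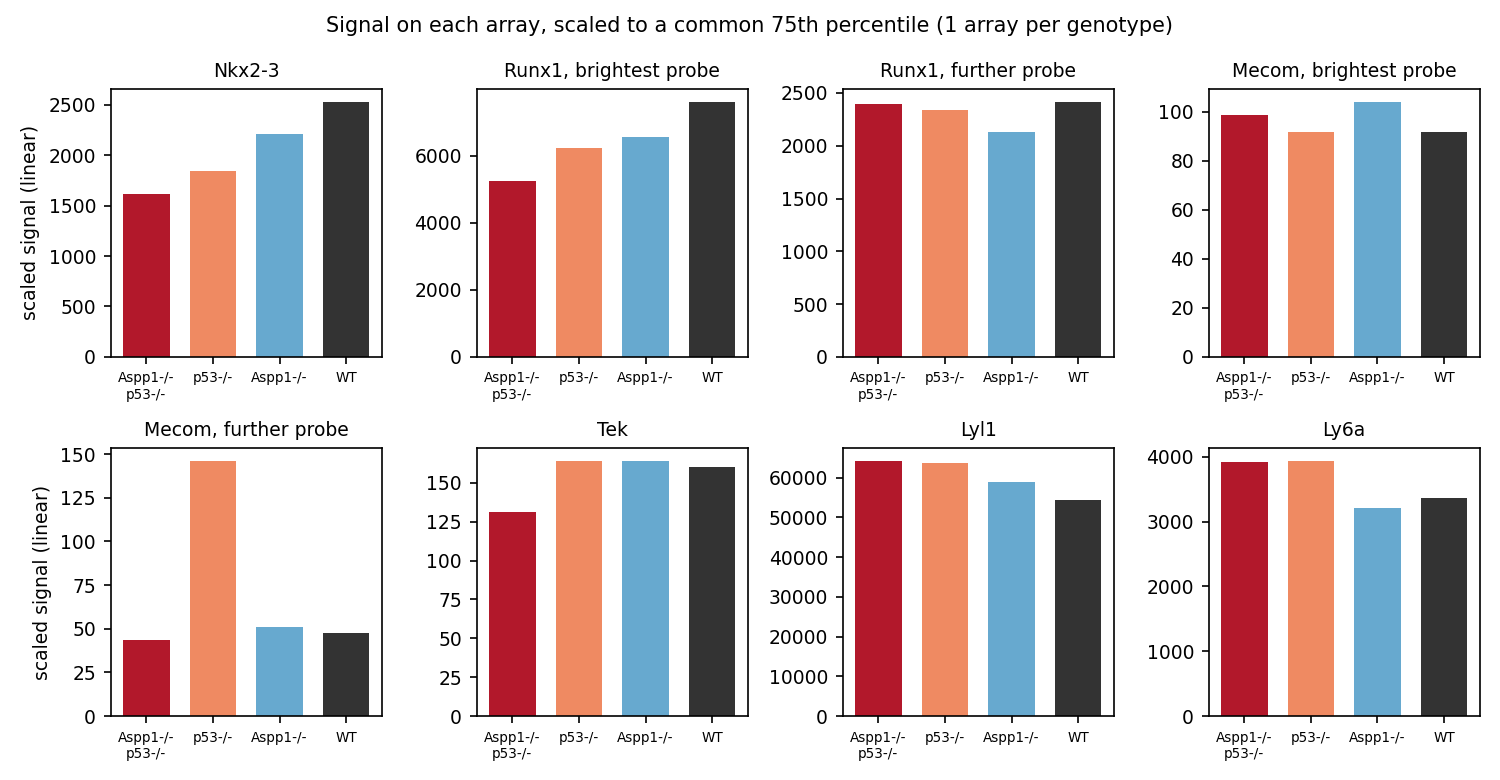
Scaled signal on a linear axis from 0 is drawn as 1 bar per array, in the order Aspp1-/-p53-/-, p53-/-, Aspp1-/- and WT, with 1 panel per probe and no error bars, since each genotype has 1 array. Nkx2-3 and the brighter Runx1 probe are lowest in Aspp1-/-p53-/-, while the further Runx1 probe does not show this order, and the further Mecom probe stands at 146 in p53-/- against 43.7 to 51.0 elsewhere.

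Among the 10 surface receptors and markers, 7 were below WT in Aspp1-/-p53-/-, 3 in p53-/- and 6 in Aspp1-/-, with medians of -0.07, 0.03 and -0.01. The gate genes come first because the sort selects on their proteins, and they are given as a description only. Kit, the stem cell factor receptor, had scaled signals of 17049 in Aspp1-/-p53-/-, 17830 in p53-/-, 17373 in Aspp1-/- and 17614 in WT, within 0.05 of WT on every array. Ly6a, which encodes Sca-1 and is induced by interferon, had 3918 in Aspp1-/-p53-/-, 3934 in p53-/-, 3206 in Aspp1-/- and 3363 in WT. It was higher on both arrays without p53, by 0.22 in Aspp1-/-p53-/- and 0.23 in p53-/-, and stood at -0.07 in Aspp1-/-.

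The receptors furthest below WT in Aspp1-/-p53-/- were Tek, Procr, Eng and Slamf1, chosen after their values were seen, and the values of Eng and Slamf1 lay within the scanner error. Tek (TIE2), the receptor for Angpt1 and a regulator of quiescence, had 131 in Aspp1-/-p53-/-, 164 in p53-/-, 164 in Aspp1-/- and 160 in WT, so that the Aspp1-/-p53-/- array alone was low, at -0.29 against WT. Procr, the protein C receptor, had 5004 in Aspp1-/-p53-/-, 5595 in p53-/-, 5819 in Aspp1-/- and 5898 in WT, a difference of -0.24 in Aspp1-/-p53-/-. Slamf1, which separates stem cells from most multipotent progenitors, was dim at 110 in Aspp1-/-p53-/-, 125 in p53-/-, 141 in Aspp1-/- and 121 in WT. It was lowest in Aspp1-/-p53-/- and highest in Aspp1-/-, and those 2 arrays differed by -0.36. Eng (endoglin), a TGF-beta co-receptor, stood at -0.15 in Aspp1-/-p53-/-, 0.00 in p53-/- and 0.03 in Aspp1-/-.

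The remaining receptors were close to WT. The adhesion molecule Esam, the Slit receptor family member Robo4 and the adhesion G protein-coupled receptor Gpr56 (now named Adgrg1) lay between -0.10 and 0.07 of WT in all 3 mutants. Cd34, a sialomucin that is low on the most quiescent adult stem cells, had 115747 in Aspp1-/-p53-/-, 108916 in p53-/-, 119010 in Aspp1-/- and 114578 in WT with its brighter probe, and its differences from WT were 0.01, -0.07 and 0.06. Its further probe gave 1682 in Aspp1-/-p53-/-, 1908 in p53-/-, 1993 in Aspp1-/- and 2133 in WT, which is -0.34 in Aspp1-/-p53-/-. The 2 Cd34 probes thus gave opposite signs in Aspp1-/-p53-/-.

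Of the 7 heptad factors, 5 were below WT in Aspp1-/-p53-/-, 5 in p53-/- and 4 in Aspp1-/-, with medians of -0.10, -0.07 and -0.02. Beside Runx1, Gata2, the zinc finger factor whose dose sets stem cell number, had 6073 in Aspp1-/-p53-/-, 6631 in p53-/-, 6931 in Aspp1-/- and 7034 in WT, a difference of -0.21 in Aspp1-/-p53-/-. Lyl1, a basic helix-loop-helix factor related to Tal1, moved the other way, with 64165 in Aspp1-/-p53-/-, 63671 in p53-/-, 58954 in Aspp1-/- and 54255 in WT. Lyl1 was the highest member of Aspp1-/-p53-/- against WT, at 0.24, and was higher than WT in p53-/- (0.23) and in Aspp1-/- (0.12) too.

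The ETS factor Erg, which stem cell self-renewal needs, had 1314 in Aspp1-/-p53-/-, 1373 in p53-/-, 1199 in Aspp1-/- and 1442 in WT. Its lowest array was Aspp1-/-, at -0.27, the lowest value of any member in that comparison. Its further probe put Aspp1-/- at -0.07 instead. The other ETS factor of the heptad, Fli1, lay within 0.05 of WT on all arrays. Lmo2, the bridging protein of the complex, stood at -0.10 in Aspp1-/-p53-/-, -0.10 in p53-/- and -0.05 in Aspp1-/-. Tal1 had 6987 in Aspp1-/-p53-/-, 7706 in p53-/-, 7708 in Aspp1-/- and 7068 in WT, so that both single mutants were above WT and Aspp1-/-p53-/- was not. The heptad therefore did not move as a block.

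The other transcription factors had 7 of 8 measured, of which 4 were below WT in Aspp1-/-p53-/-, 5 in p53-/- and 5 in Aspp1-/-. Hlf, a leucine zipper factor that marks stem cells, had 9628 in Aspp1-/-p53-/-, 9350 in p53-/-, 10834 in Aspp1-/- and 11029 in WT. Both arrays without p53 were lower, by -0.20 and -0.24, and Aspp1-/- was at -0.03. Etv6, an ETS-family repressor that adult stem cells need to survive, stood at -0.24 in Aspp1-/-p53-/-, -0.06 in p53-/- and -0.08 in Aspp1-/-, and its further probe cleared background in Aspp1-/- alone. Meis1, the cofactor of Hox proteins, was above WT by 0.13 in Aspp1-/-p53-/-, 0.14 in p53-/- and 0.14 in Aspp1-/-. Gfi1b is a transcriptional repressor that acts in erythroid and megakaryocytic cells and limits stem cell expansion. It had 3769 in Aspp1-/-p53-/-, 3146 in p53-/-, 3187 in Aspp1-/- and 3413 in WT. Among these factors, Gfi1b alone was above WT in Aspp1-/-p53-/- and below it in both single mutants. Prdm16, a zinc finger regulator of stem cell maintenance, stayed between -0.02 and 0.09.

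Mecom, the locus of the Evi1 and Mds1-Evi1 zinc finger proteins that long-term stem cells require, was the member on which the probes differed most. The brighter probe, at chr3:30135491-30135550 (mm9, minus strand), gave 98.8 in Aspp1-/-p53-/-, 91.5 in p53-/-, 104 in Aspp1-/- and 91.8 in WT, differences of 0.11, -0.01 and 0.18 from WT. The further probe, at chr3:29876185-29876244, starts 259 kb away and gave 43.7 in Aspp1-/-p53-/-, 146 in p53-/-, 51.0 in Aspp1-/- and 47.8 in WT. The p53-/- array alone was high, by 1.62 or 3.07-fold against WT, and Aspp1-/-p53-/- was at -1.75 against p53-/-. This probe is on each array as 1 spot, and both probes were well above background on all 4 arrays. The sequence of the further probe, as deposited, and the 250 bases upstream of both starts of the gene (RefSeq, GRCm38.p6, minus strand, chr3:30509760-30510009 and chr3:30013205-30013454) are given because the probes report different stretches of the locus, with capitals as above.
Mecom further probe: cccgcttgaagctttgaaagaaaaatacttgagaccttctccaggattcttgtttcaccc
Mecom upstream start: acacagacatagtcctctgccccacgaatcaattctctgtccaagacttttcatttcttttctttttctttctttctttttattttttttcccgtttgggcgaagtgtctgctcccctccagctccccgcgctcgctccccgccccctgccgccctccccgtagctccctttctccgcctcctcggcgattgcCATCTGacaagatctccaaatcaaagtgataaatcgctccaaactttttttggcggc
Mecom downstream start: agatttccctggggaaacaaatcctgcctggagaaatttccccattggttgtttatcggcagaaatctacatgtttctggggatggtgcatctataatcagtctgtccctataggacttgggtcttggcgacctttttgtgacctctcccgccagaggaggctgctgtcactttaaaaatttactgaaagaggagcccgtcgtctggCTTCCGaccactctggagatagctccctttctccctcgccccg
The upstream window held 1 E-box and the downstream window 1 ETS motif. Which transcripts the 2 probes report was not tested.

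The 3 chromatin and RNA regulators stayed close to WT with their brightest probes. The Polycomb protein Bmi1, which self-renewal requires, was above WT by 0.10 in Aspp1-/-p53-/-, 0.14 in p53-/- and 0.07 in Aspp1-/-, and its further probe gave 0.15, 0.17 and 0.16. Msi2, an RNA-binding protein that favours self-renewal, lay between -0.07 and -0.02 of WT. Mllt3 (AF9), a reader of acylated histones, lay between -0.09 and -0.08 with its brighter probe. The further Mllt3 probe, dim at 66.5 in Aspp1-/-p53-/-, 72.6 in p53-/-, 83.2 in Aspp1-/- and 62.2 in WT, was above WT on all 3 mutant arrays, by 0.42 in Aspp1-/-.

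Of the 7 signalling, adhesion and other proteins, 5 were below WT in Aspp1-/-p53-/-, 6 in p53-/- and 3 in Aspp1-/-. Tgm2, a transglutaminase, had 2905 in Aspp1-/-p53-/-, 3154 in p53-/-, 3524 in Aspp1-/- and 3517 in WT, at -0.28 in Aspp1-/-p53-/- with this probe and -0.24 with the further one. Angpt1, the ligand of Tek, had 15210 in Aspp1-/-p53-/-, 15029 in p53-/-, 15847 in Aspp1-/- and 17251 in WT, so that all 3 mutants were below WT by -0.18, -0.20 and -0.12. The cation channel Trpc6 was likewise below WT on all 3 mutant arrays, at -0.13, -0.24 and -0.09. Ndn (necdin), a growth suppressor that p53 is known to induce, had 125 in Aspp1-/-p53-/-, 139 in p53-/-, 158 in Aspp1-/- and 142 in WT, which put Aspp1-/-p53-/- lowest at -0.19 and Aspp1-/- highest at 0.15.

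Fgd5, a guanine nucleotide exchange factor used to label stem cells in reporter mice, was dim, with 48.6 in Aspp1-/-p53-/-, 53.2 in p53-/-, 56.6 in Aspp1-/- and 43.0 in WT. It was above WT on all 3 mutant arrays, by 0.18, 0.31 and 0.40, the highest value of any member in both single mutants. Pdzk1ip1 (MAP17), used as another reporter of stem cells, stood at -0.12, -0.03 and -0.14, with close values from its further probe. Ctnnal1 (alpha-catulin), also such a label, stood at 0.07, -0.01 and 0.14. Its further probe was dim and gave 53.4 in Aspp1-/-p53-/-, 35.8 in p53-/-, 58.0 in Aspp1-/- and 58.2 in WT, so that p53-/- alone was low, at -0.70.

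For 9 members a further probe was well above background on all 4 arrays, which gives a check that does not depend on the choice of probe. The sign was the same with both probes for 5 of 9 in Aspp1-/-p53-/- against WT, 6 of 9 in p53-/- against WT and 6 of 9 in Aspp1-/- against WT. The median gap between the 2 probes of a gene was 0.182, 0.146 and 0.092 in these comparisons, against a median absolute difference from WT of 0.133, 0.077 and 0.084 over the members. The widest gaps were 0.523 for Runx1, 1.62 for Mecom and 0.508 for Mllt3. The 2 probes of a gene thus differed by about as much as, or more than, a typical member differed from WT. For Runx1, Mecom and Mllt3 the 2 probes are filed under different transcripts of the gene. Those of Ctnnal1, with a gap of 0.694 in p53-/- against WT, are filed under the same one. Whether the gaps reflect the transcripts or the probes was not tested.

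**Figure D3:**
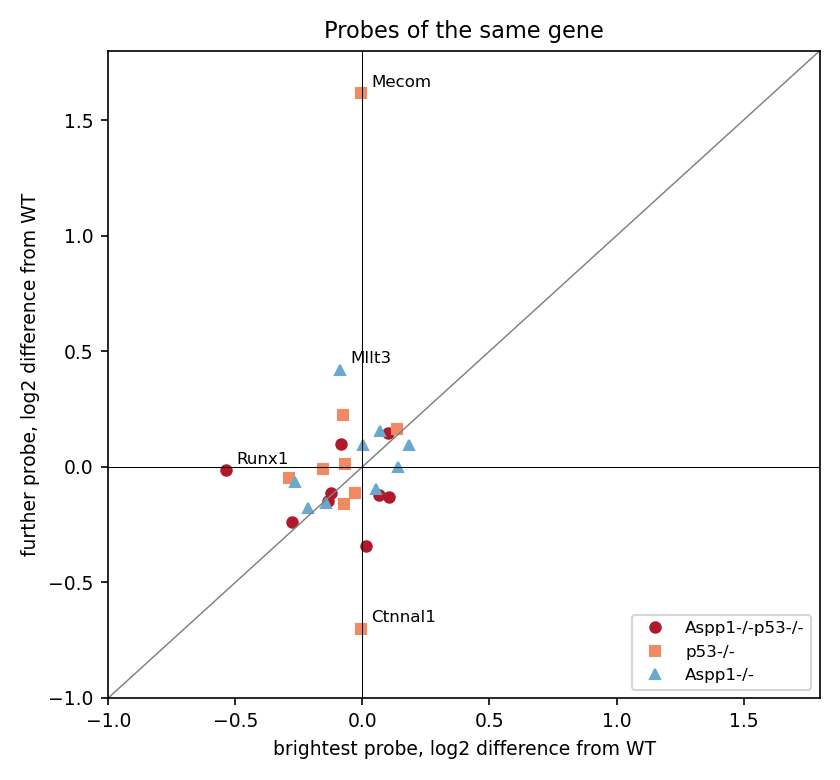
Each point is the log2 difference from WT of 1 member in 1 mutant, with its brighter probe on the horizontal axis and its further probe on the vertical axis, for the 9 members with both probes well above background on all arrays. On the diagonal both probes agree within plotting accuracy, and Mecom in p53-/- (1.62 against -0.01), Ctnnal1 in p53-/- (-0.70 against -0.01), Runx1 in Aspp1-/-p53-/- (-0.02 against -0.54) and Mllt3 in Aspp1-/- (0.42 against -0.09) lie far from it.

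Taken over the 4 arrays, the range of a member, from its highest to its lowest array, had a median of 0.193 on the log2 scale, against 0.210 over all 18988 genes. Ranges above 0.5 were found in 2 of 34 members (5.88%) and in 15.2% of all genes. The lowest array was Aspp1-/-p53-/- for 15 members, p53-/- for 9, Aspp1-/- for 6 and WT for 4. The highest was Aspp1-/-p53-/- for 2 members, p53-/- for 8, Aspp1-/- for 10 and WT for 14. Over all genes the Aspp1-/-p53-/- array was lowest for 29.3% and highest for 30.2%, against 44.1% and 5.88% of the members. WT was lowest for 34.0% and highest for 27.5% of all genes, against 11.8% and 41.2% of the members. For p53-/- the shares were 15.5% and 18.6% of all genes, against 26.5% and 23.5% of the members. For Aspp1-/- they were 21.2% and 23.7%, against 17.65% and 29.4%.

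Bright genes vary less than dim ones on these arrays, and 9 of 34 members had a WT signal under 1000 against 9792 of 18988 genes, so the spread was also set beside genes of like signal. Between 1000 and 10000, the SD of the difference in Aspp1-/-p53-/- against WT was 0.237 over 15 members and 0.276 over all genes, and the median range was 0.237 against 0.156. Over 10000, the SD was 0.136 over 10 members and 0.252 over all genes, and the median range 0.135 against 0.126. Under 1000, the SD was 0.151 over 9 members and 0.420 over all genes, and the median range 0.243 against 0.305. In p53-/- against WT the SDs were 0.146 over members and 0.333 over all genes under 1000, 0.170 and 0.170 between 1000 and 10000, and 0.144 and 0.135 over 10000. By its median range, the set was thus steadier than all genes in the dim class and not in the brighter classes.

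**Figure D4:**
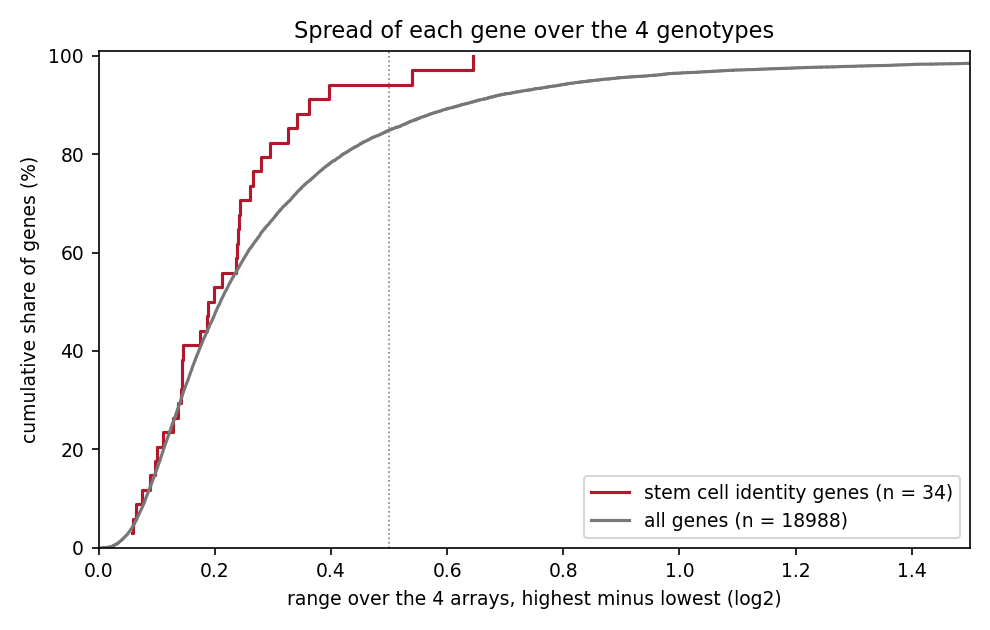
The cumulative share of genes in percent (vertical axis) is drawn against the range over the 4 arrays on the log2 scale (horizontal axis), in red for the 34 members and in grey for all 18988 genes well above background on all arrays. The axis ends before the widest genes, and the dotted line marks 0.5, beyond which lie 5.88% of members and 15.2% of all genes.

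Because each locus was lost on 2 of the 4 arrays, an additive model of both losses could be fitted with limma (2-sided tests) over all 18988 genes, which leaves 1 residual degree of freedom per gene and assumes that the effects add. After Benjamini-Hochberg adjustment over all genes, 0 of 34 members passed 0.05 for Aspp1 loss and 0 for p53 loss, as did 0.0% of all genes for either effect. At an unadjusted p under 0.05 the counts were 2 of 34 members for Aspp1 loss and 5 for p53 loss, against 8.65% and 12.3% of all genes. Ppp1r13b itself, with an effect of Aspp1 loss of -2.57, had a limma adjusted p of 0.509, and Trp53, with an effect of p53 loss of -2.15, had one of 0.309, so the model did not call even the targeted genes.

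The member with the lowest p was Nkx2-3, with an effect of p53 loss of -0.45 (SE 0.061, limma adjusted p = 0.309). Runx1 followed at -0.31 (SE 0.061, limma adjusted p = 0.322) and Ly6a at 0.26 (SE 0.063, limma adjusted p = 0.350). Hlf at -0.20 and Tgm2 at -0.22 were the others under an unadjusted 0.05 for p53 loss. For Aspp1 loss the same was true of Runx1 at -0.23 and Nkx2-3 at -0.19, both with a limma adjusted p of 0.574. With a variance prior that follows the mean signal, 1 of 34 members passed for p53 loss (limma adjusted p = 0.0497), beside 142 of all 18988 genes. No member passed under any other alternative run.

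Whether the 2 losses added up was examined as Aspp1-/-p53-/- minus both single mutants plus WT, a value that is 0 when the log2 effects add and that has no test here. The members had a median of -0.06, with 21 of 34 below 0, against a median of -0.02 and 54.1% below 0 over all genes. Values ran between -0.52 for Fgd5, which was above WT more in each single mutant than in Aspp1-/-p53-/-, and 0.36 for Gfi1b. The count past 0.5 was 1 of 34 members, against 7.84% of all genes, and 0 passed 1, against 1.81%. Nkx2-3, with differences of -0.64, -0.46 and -0.20, lay close to the sum of its single differences.

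A further list of 30 stem cell genes, which does not share a name with the 35, gave the same small medians. Of these, 29 were represented, all but Fhl1, and their median difference from WT was -0.11 in Aspp1-/-p53-/-, -0.03 in p53-/- and -0.01 in Aspp1-/-. In Aspp1-/-p53-/- against WT, 2 of the 29 were lower by more than 2-fold and 0 higher. They were Cyp26b1, which degrades retinoic acid, at -1.40, with -0.28 in p53-/- and -0.53 in Aspp1-/-, and Myct1, at -1.20, with -0.71 in p53-/- and -0.41 in Aspp1-/-.

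Some lists of other cell types and states held larger differences, and their values are given beside those of the stem cell genes. The summed scaled signal of the represented granulocyte markers was 44372 in Aspp1-/-p53-/-, 93117 in p53-/-, 90314 in Aspp1-/- and 102850 in WT, and 7 of 10 were lower by more than 2-fold in Aspp1-/-p53-/- than in WT, among them Ltf (-1.92) and Ngp (-1.84), proteins of neutrophil granules. Of 14 immediate-early genes, 9 were lower by more than 2-fold in that comparison, with sums of 400036 in Aspp1-/-p53-/-, 623406 in p53-/-, 805659 in Aspp1-/- and 889066 in WT. Of 7 stromal markers represented, 2 were lower by more than 2-fold, the chemokine Cxcl12 at -2.20 and the adhesion molecule Vcam1 at -2.05, with sums of 3061 in Aspp1-/-p53-/-, 3643 in p53-/-, 3482 in Aspp1-/- and 3887 in WT. Of the 10 stromal markers listed, 6 were well above background on all 4 arrays, and Kitl, Col1a1 and Col3a1 on none. Of 7 megakaryocyte markers represented, 1 was lower by more than 2-fold, Plek at -1.08, with sums of 20782 in Aspp1-/-p53-/-, 23866 in p53-/-, 28919 in Aspp1-/- and 33184 in WT. The part of these lists in the values of the stem cell genes was not tested.

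Lists in which no marker passed 2-fold are given for the same reason. Several members (Tek, Eng, Esam, Robo4, Erg) are also expressed by endothelium, and 8 of 12 endothelial markers were represented, with sums of 51555 in Aspp1-/-p53-/-, 58692 in p53-/-, 55481 in Aspp1-/- and 53997 in WT. None of the 8 passed 2-fold in any comparison. All 8 were well above background on all 4 arrays, while Cdh5, Sox18, Mmrn2 and Stab2 were not on any array. Multipotent and lymphoid-primed progenitor markers, 12 of 12 represented, summed to 142525 in Aspp1-/-p53-/-, 145910 in p53-/-, 133870 in Aspp1-/- and 146007 in WT, and 0 of 12 passed 2-fold in any comparison. The 12 myeloid progenitor markers did not pass it either, with sums of 306750 in Aspp1-/-p53-/-, 312584 in p53-/-, 272214 in Aspp1-/- and 305202 in WT. Of the erythroid, mast cell and basophil, B cell, and T and NK cell lists, 8 of 10, 6 of 8, 7 of 8 and 4 of 8 markers were represented, and 0 passed 2-fold in any comparison. Their medians could still be larger than those of the stem cell genes. The B cell median was 0.09 in Aspp1-/-p53-/-, 0.33 in p53-/- and -0.35 in Aspp1-/- against WT, and the myeloid progenitor median was -0.02, 0.03 and -0.19, with 11 of 12 markers below WT in Aspp1-/-. The part of these lists in the values of the stem cell genes was likewise not tested.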

How the data were processed

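LSK cells of 4 genotypes were profiled on 4 Agilent 1-colour arrays, 1 per genotype. Per the file headers, spots were read with Agilent Feature Extraction 10.7.3.1 and probes placed on mm9. The deposited processed signal is a linear intensity, background-subtracted and not scaled between arrays, and the deposited flags (other values, 0 or 1) mark spots well above background, outliers and saturation. The deposited value table holds log2 values. Its differences between arrays matched those of the scanner files, with each probe centred over the arrays, as read from the values. Its column medians were 0.0478 for Aspp1-/-p53-/-, 0.0267 for p53-/-, -0.0422 for Aspp1-/- and -0.0661 for WT, and their scaling is not stated in those sources.

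Control spots and outlier spots were left out, spots of a probe averaged, and log2 intensity set relative to each array's 75th percentile. Member probes were named by the file's gene name alone. For the other listed genes the file's name came first, then the RefSeq accession. All remaining probes were named through their RefSeq accession, otherwise by the file's name. A gene is represented by the brightest of its probes that exceed background clearly on 1 or more arrays. A probe filed under another name whose accession is that of Msi2 was not used. With 1 array per genotype the 5 comparisons have no test, and a log2 difference of 1, or of 0.5, served as a rule of size. A gene dim on 1 side has a bound against that array's lowest signal well above background. The additive model was fitted with limma 3.58.1 (R 4.3.3), with adjusted p over all genes. It was also run on simulated data drawn to meet its assumptions, which says nothing of how well the real arrays meet them. Tables were made with Python 3.11.15. The alternatives were 6 for each comparison and 7 for the additive model. Every member is named, and of the other lists up to 4 genes past 2-fold were eligible to be named. The members, lists and sizes were chosen with earlier results of these data known. Upstream sequences are RefSeq's. Some lineage markers are not reported here.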

Additional observations from a re-analysis of the deposited data

How the results depend on the processing

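No paired analysis was possible because each genotype has 1 array and the labels carry no replicate numbers. Of 202 values under alternatives, 188 stayed close to the reported one and 14 moved, of which that of Mecom in p53-/- against WT changed sign. The median of the members was below 0 in 30 of 30 cases over the 5 comparisons, between -0.0936 and -0.06 for Aspp1-/-p53-/- against WT. Part of this stability was fixed beforehand. A stricter background filter could not change a member's difference, since the brightest probes of all 34 already met it. The deposited value table held the same differences as the scanner files, and rescaling by the median shifts all genes of a comparison alike. With the mean of all probes of a gene, 1 member passed 0.5 in Aspp1-/-p53-/- against WT, where Runx1 stood at -0.28. The count was also 1 in p53-/- against WT, which was Mecom at 0.81 against -0.01 as reported. It was 1 in Aspp1-/-p53-/- against p53-/- and 1 in Aspp1-/- against WT. In the last of these, only Etv6 had a probe past 0.5, its further one at 1.22, while its brightest gave -0.08. That further probe was near background, with a scaled signal of 15.8 in WT, and cleared it in Aspp1-/- alone. Shares of all genes are not given for these counts. The members whose non-additive value passed 0.5 numbered 3 with that mean, 0 with quantile normalisation and 0 with normexp background correction. In the additive limma model with normexp, genes with adjusted p under 0.05 numbered 1 of 18988 for Aspp1 loss and 33 for p53 loss. With a trended prior they numbered 2 and 142 of 18988, which included 1 of 34 members for p53 loss. The cause was not tested. Members near background, such as Fgd5 and the further probes of Mecom, Ctnnal1 and Mllt3, have the least precise values, and the number of arrays limits all of them.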
